A study of Mus musculus with 14 samples.

Results

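The genes that encode the proteasome were examined in maps of histone H3 lysine 9 acetylation (H3K9ac) from regenerating mouse liver. A gene counted as a member when its RefSeq entry was protein-coding and its symbol was Psma, Psmb, Psmc, Psmd, Psme or Psmg followed by a digit, which gave 50 of the 21900 protein-coding genes. A peak was taken as theirs when it overlapped the 1 kb on either side of the lower or the upper end of such a gene. Peaks of all libraries that overlapped by at least 1 bp were joined, and 58 of the 57979 joined regions met this condition. Of the 50 genes, 48 make parts, activators or chaperones of the proteasome, and 2 (Psmc3ip, a meiotic recombination factor, and Psme3ip1, a binding partner of Psme3) only carry the name.

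H3K9ac was measured by chromatin immunoprecipitation and sequencing. The tissue was liver of male C57BL6/J mice, 2 to 3 months old, taken 12 h after part of the liver had been removed to set off its regrowth (partial hepatectomy). The question behind the series was what a later drop in blood sugar after this operation does to the mark. Titles name 6 libraries d22 and 6 pbs. All d22 libraries carry the treatment label vehicle (1/2 strength PBS) and all pbs libraries the label dextrose (22.5% in vehicle), so the title and the treatment label of a library go against each other. Both pooled inputs, titled d22 and pbs, carry the dextrose label, so the treatment label does not separate them. Libraries are therefore named by title, and no library is assigned here to a glucose-treated or an untreated mouse. Whether each library is from a mouse of its own is not stated in the labels. The p-values therefore measure only spread between libraries, which may be technical. Depth ran from 6343891 tags in d22 4 to 13259411 in pbs 1. Tags were 48 bp long in pbs 1, pbs 4 and pbs 6 and 49 bp in the other libraries. Library d22 4 stood apart with 44585 peaks, against 26352 to 30780 in the other 11. A pooled input served for calling peaks in every d22 library and a different one in every pbs library, so input and group cannot be told apart in any value that rests on called peaks.

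The proteasome is the main protease for ubiquitin-tagged proteins in the cytosol and nucleus. Its barrel, the 20S core particle, is built of outer rings of alpha subunits, which gate the entry, and inner rings of beta subunits, which carry the catalytic sites. The 19S regulatory particle on its ends has a base of ATPases that unfold the substrate and a lid that removes the ubiquitin chain. Interferon and immune cells bring in other catalytic subunits, which form the immunoproteasome. Acetylation of H3K9 marks the promoters of active genes, and housekeeping genes such as these carry it in most tissues.

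Proteasome genes were almost uniformly marked, and no member differed between d22 and pbs past the test in tag counts. In the fold enrichment that the peak caller took against each group's own input, 8 were called lower and 1 higher in d22, where 18.9% and 1.34% of all regions were. A region called in all 12 libraries lay at an end of 45 of the 50 genes (90%), against 47.2% of all protein-coding genes. This was not particular to proteasome genes. With 1 region taken per gene, 80 cytosolic ribosomal protein genes had 75 such regions and 77 mitochondrial ones had 70. Psmd10, an X-linked chaperone of the ATPase base also called gankyrin, had its region in 11 libraries, all but d22 4, and every other gene named with a value below had its region in 12. No region lay at the ends of Psma6, Psma8, Psmb11 or Psme2b. Psma8 (a testis form of an alpha subunit) and Psmb11 (a thymus form of a catalytic subunit) are not known as liver genes. Of the 58 regions, 48 were in all 12 libraries, 1 in 11, 2 in 6 and 7 in a single library.

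Psma6, an alpha subunit, had no region at its listed ends but did have one inside the gene. The gene runs from 55384222 to 55418459 on chromosome 12 (mm10), and RefSeq lists start sites at its lower end and at 55398825, 14603 bp inside the gene. No peak of any library overlapped the first, whereas the second lay in a region of 4570 bp called in all 12 libraries (chr12:55397237-55401806). That region had 112, 126 and 142 CPM as the lowest, median and highest of the d22 libraries, against 118, 127 and 153 CPM in pbs (CPM, counts per 1000000 tags in the tested regions). The groups overlapped, with a log2 fold change of -0.02 ± 0.09 SE (quasi-likelihood test of edgeR, p adjusted by Benjamini-Hochberg = 0.962). The 300 bases around each start (250 before, 50 after, RefSeq, GRCm38.p6, plus strand) are shown because a region covered the second and not the first. Capitals mark matches to 6 motifs named further on, CCAAT boxes in the first and ETS cores in the second.
Psma6, first start (chr12:55383972-55384271): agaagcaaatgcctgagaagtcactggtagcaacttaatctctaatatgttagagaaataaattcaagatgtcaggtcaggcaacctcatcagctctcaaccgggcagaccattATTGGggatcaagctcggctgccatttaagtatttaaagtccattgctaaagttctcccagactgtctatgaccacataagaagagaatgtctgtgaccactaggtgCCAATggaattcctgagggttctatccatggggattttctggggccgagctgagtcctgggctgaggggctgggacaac
Psma6, second start (chr12:55398575-55398874): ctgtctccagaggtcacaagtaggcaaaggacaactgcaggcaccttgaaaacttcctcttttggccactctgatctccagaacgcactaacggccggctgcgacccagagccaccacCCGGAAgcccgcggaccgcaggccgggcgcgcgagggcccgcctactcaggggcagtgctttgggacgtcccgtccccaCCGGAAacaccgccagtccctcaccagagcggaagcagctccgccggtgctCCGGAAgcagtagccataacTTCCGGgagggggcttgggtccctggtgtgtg
The first sequence holds 2 CCAAT boxes and no ETS core. The second holds 4 ETS cores, 3 on the plus strand and 1 on the minus strand.

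At Psma3, another alpha subunit, both the gene's end and a start inside the gene were marked. The region at its lower end (chr12:70967508-70970013) was called in all 12 libraries but holds no start site of the promoter table. The listed start, 70974623, lies 5340 bp inside the gene in a second region common to all 12 libraries (chr12:70973915-70976833). Per kb of called peak the second region averaged 10.2 tags per 1000000 library tags over the 12 libraries, against 5.02 at the gene's end. It had 109, 118 and 180.2 CPM in d22 (lowest, median, highest) and 101, 130.4 and 145 CPM in pbs, with a log2 fold change of 0.00 ± 0.12 SE (edgeR adjusted p = 0.994). Values given for Psma3 from here on are those of the region at its end.

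Of the 38 tested members with a listed start, Psma3 was the single one whose region missed it, which left 37 of 38 (97.4%) with a start inside the region, against 90.1% of 8372 protein-coding genes. Regions of the 45 members were 1692 bp (Psmg4) to 8241 bp (Psmb10) wide, with a median of 2717 bp, and reached a median of 914 bp before and 1824 bp past the start. The summit of the largest peak lay downstream of the start at 30 of the 37 genes, at a median of 195 bp over all 37. The share was 81.1% for the members and 81.5% for all protein-coding genes with a start in a region common to all libraries. At 7 genes the median summit lay upstream (Psmb10, Psme2, Psmd13, Psmb9, Psme3ip1, Psma2 and Psmc3ip), and all 7 shared their region with the end of another gene, as did 9 of the 30 with a downstream summit. At 18 of the 45 members (40.0%) the region touched an end of at least 1 other protein-coding gene, against 35.4% of the 10329 protein-coding genes with a region in all libraries. Neighbours included Mrpl32 for Psma2, Dnajc2 for Psmc2, Sirt3 for Psmd13, Tbp for Psmb1, Tap1 for Psmb9 and Psmb8, and Lcat with Slc12a4 for Psmb10. Tags in such a region cannot be divided between the genes.

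**Figure D1:**
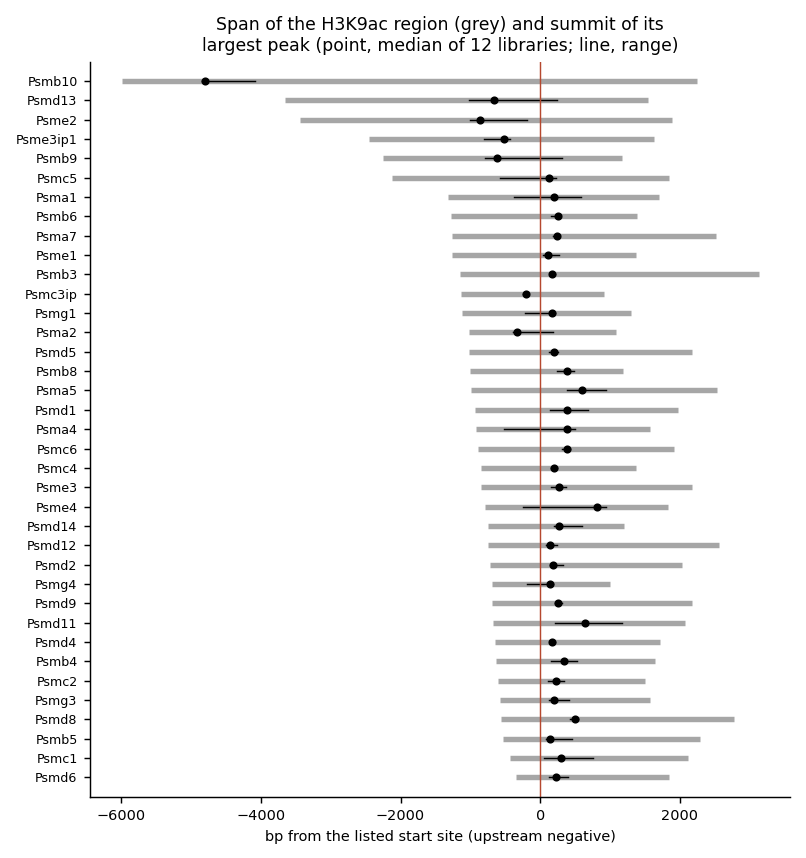
Span of the H3K9ac region around the listed start site of 37 proteasome genes (x axis, bp, upstream negative; 1 row per gene, ordered by upstream reach). Grey bars are the regions, points the median summit of the largest peak over 12 libraries and black lines its range; 30 points lie right of the start, and the Psmb10 summit lies at -4805 bp.

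The members' regions carried more tags per kb than gene-end regions in general, in every library. The median over the 45 members of tags per kb of called peak per 1000000 library tags was 7.13, 7.36 and 9.21 in the lowest, median and highest d22 library, against 7.88, 8.33 and 11.2 in pbs. The same median over the 8594 gene-end regions was 5.65, 5.85 and 7.45 in d22 and 6.25, 6.57 and 8.40 in pbs. The members' median was 1.18 to 1.29 times the gene-end median in d22 libraries and 1.18 to 1.35 times in pbs libraries. Library d22 2 was highest in its group and pbs 3 in its own, for the members and for gene-end regions alike. Over all libraries 40 of the 45 members were above the gene-end median of 6.56, and 13 were in the top 10% of gene-end regions. Other housekeeping genes were above that median too. The median was 8.50 over 75 regions of cytosolic ribosomal protein genes and 7.13 over 70 of mitochondrial ones, against 8.29 over the members. These are levels per called length and were not tested between gene groups.

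Between the particles, the median of the 19S genes was above that of the 20S genes in this level in every library. Single genes overlapped widely, with means over all libraries of 6.90 to 14.0 in the 19S particle and 5.02 to 10.1 in the 20S core. The libraries measure the same genes again, and the difference between the gene classes was not tested. The 17 genes of the 19S particle had median levels per kb of 7.44, 8.08 and 9.69 in d22 libraries and 8.63, 8.88 and 13.1 in pbs libraries (lowest, median, highest). The 13 tested genes of the 20S core had 6.71, 7.14 and 8.65 in d22 and 7.54, 7.93 and 10.9 in pbs. The 19S median was above the 20S median in 6 of 6 d22 libraries and in 6 of 6 pbs libraries, by 1.04 to 1.27 times in d22 and 1.03 to 1.21 times in pbs. The 3 immunoproteasome genes had 5.66, 6.65 and 9.10 in d22 and 6.08, 7.48 and 8.63 in pbs. Their median was above that of the 20S core in 2 of 6 d22 libraries and 1 of 6 pbs libraries. The 6 chaperones, which help assemble the particles, had the lowest class median in d22 (6.32), against 7.43 in pbs. The 4 tested activators, which open the core in place of the 19S particle, were at 7.65 in d22 and 8.52 in pbs. With the region at its listed start for Psma3 and for Psma6, alternatives chosen after seeing the data, the 20S core stood at 8.04 over all libraries, against 7.93 without them.

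The highest level per kb was at Psmc4, an ATPase of the 19S base (chr7:28048714-28050939), at 9.02, 13.4 and 14.8 in d22 and 11.6, 14.0 and 24.6 in pbs. The value of 24.6 came from pbs 3, and the other 5 pbs libraries were at 11.6 to 16.0. Psmc4 also had the shortest median called length of the tested members, 1160.5 bp in d22 and 1238.5 bp in pbs, with 944 bp in pbs 3. Psmc4 was above 99.9% of gene-end regions. In 9 of 12 libraries it exceeded the next member, Psmd11, a lid subunit that averaged 11.7. Psmd11 was above Psme3ip1 (10.6) in 10 libraries. Further down neighbours exchanged places more: Psmd1 (10.3) was above Psmd6 (10.3) in 5 of 12 libraries, and Psmd6 above Psmb2 (10.1) in 6. The lowest levels were at Psma3 (5.02), Psmb8 (5.48), Psmg4 (5.61) and Psmg2 (6.40). Psmd10, which was not tested, was lower still, at 2.56, 3.42 and 3.77 in its 5 d22 libraries and 3.38, 3.68 and 4.44 in 6 pbs libraries. The promoter of Psmc4, the most densely marked member, is shown on the minus strand, with its 2 GC boxes in capitals.
Psmc4 (chr7:28050043-28050342): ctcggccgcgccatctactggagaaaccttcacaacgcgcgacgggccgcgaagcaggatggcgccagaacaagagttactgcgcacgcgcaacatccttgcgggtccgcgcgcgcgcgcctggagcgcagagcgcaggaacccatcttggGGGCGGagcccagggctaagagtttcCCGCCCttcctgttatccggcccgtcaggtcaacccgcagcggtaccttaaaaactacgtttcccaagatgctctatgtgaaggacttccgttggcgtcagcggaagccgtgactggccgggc

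**Figure D2:**
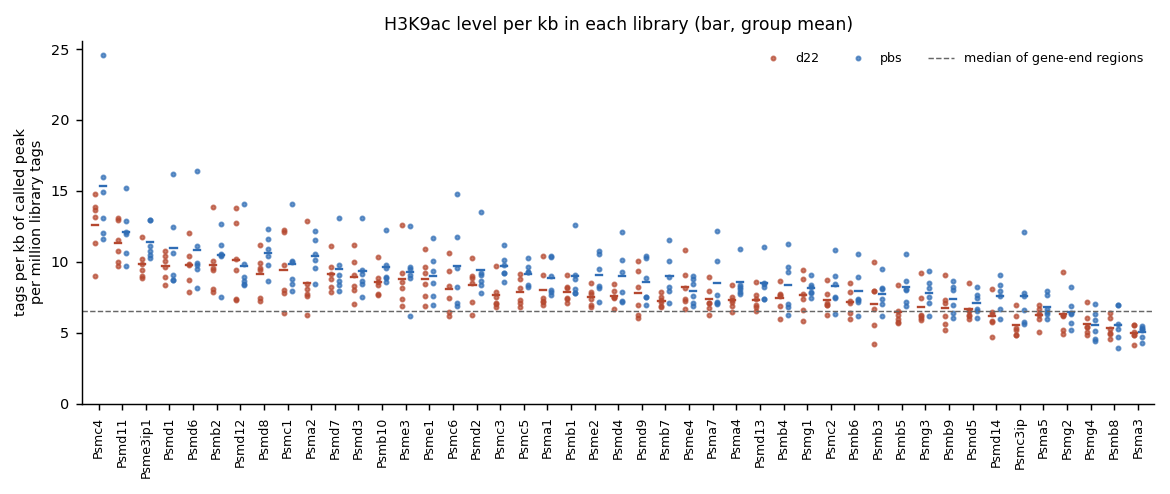
H3K9ac level per kb of called peak per 1000000 library tags (y axis) at 45 proteasome genes (x axis, highest mean first) in each library. Points are libraries (d22 left, pbs right), bars group means and the dashed line the gene-end median of 6.56; Psmc4 is highest and Psma3 lowest, and the groups overlap at every gene.

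Tag counts in the same regions were then compared between d22 and pbs by edgeR over all 12375 regions present in the 12 libraries. None of the 45 members passed an adjusted p of 0.05, where 1.01% of all regions did (125 of 12375, and 64 to 76 without any 1 of d22 2, d22 6, pbs 2, pbs 3, pbs 4 and pbs 5). By DESeq2 none did either, where 2.2% of all regions did. At an unadjusted p under 0.05 there was 1 of 45, Psmg4, where 10.9% of all regions were. Log2 fold changes (d22 over pbs) ran from -0.18 at Psma5 to 0.35 at Psmg4, 22 above 0 and 23 below, with a median of 0.00, as for all regions (0.00). These counts hold for the scale edgeR uses, TMM, which centres the regions. With the library totals of the file headers as the only scale, all regions moved by a median of -0.22 and the members by -0.24, so that 44 of 45 were below 0, all but Psmg4 (0.13). No member was called lower on that scale, where 3.46% of all regions were. The 95% interval stayed within 1.5-fold in either direction for 44 of the 45 members (97.8%), the exception being Psmg4 with a bound of 1.53-fold, and for 83.3% of gene-end regions. Without d22 4 no member passed (lowest adjusted p = 0.305, edgeR), and log2 fold changes ran from -0.15 to 0.33. Liver is a mixture of cells, and fewer cells that carry the mark cannot be told apart from less of the mark per cell.

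The spread behind these values was small. The SD of log2 CPM within groups had a median of 0.160 over the members (range 0.0921 to 0.322), against 0.215 over gene-end regions. Members also had more tags, a median of 178 per library against 142 at gene-end regions. Among regions with 147 to 205 tags, the interquartile range of the members, the SD was 0.160 for members and 0.189 for 1659 gene-end regions. This was not tested.

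**Figure D3:**
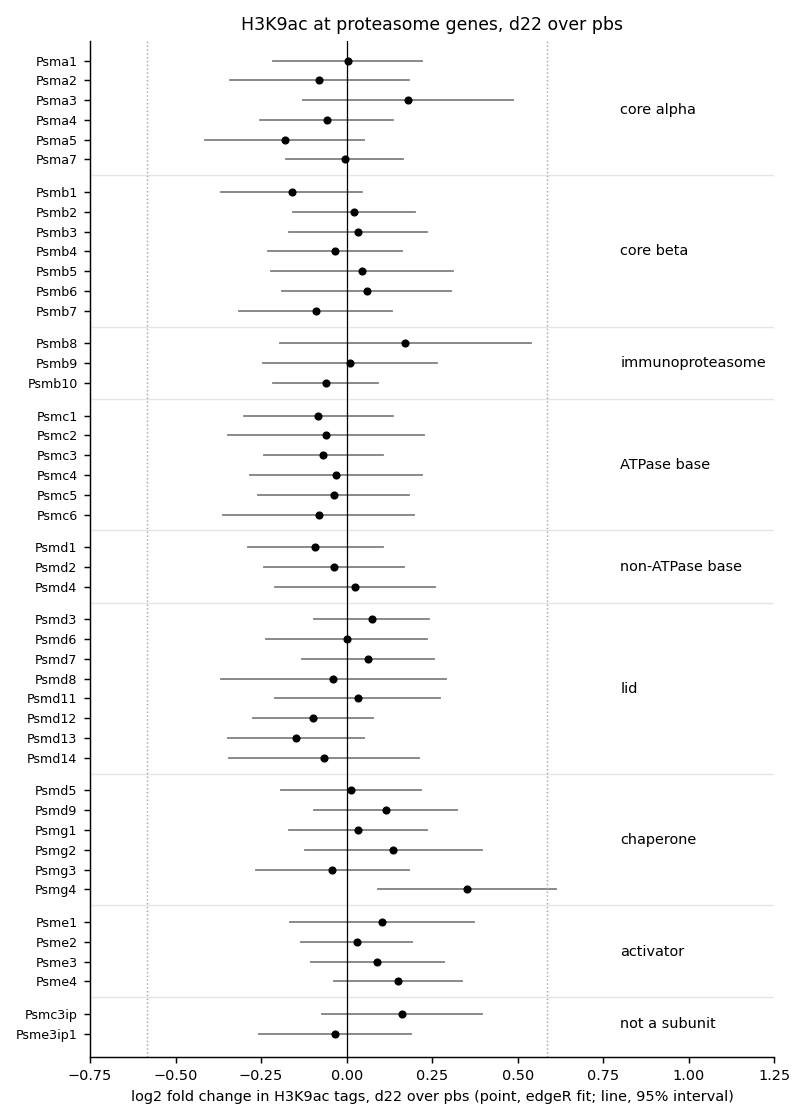
Log2 fold change of H3K9ac tags, d22 over pbs (x axis), at 45 proteasome genes grouped by class. Points are edgeR estimates from 6 against 6 libraries, lines their 95% intervals and dotted lines 1.5-fold in either direction; only the interval of Psmg4 passes a dotted line and only it leaves out 0.

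Psmg4 stood furthest from 0. It encodes a chaperone that acts with Psmg3 on the alpha ring. Its region (chr13:34162272-34163963), the narrowest of the members, had 42.2, 45.3 and 50.3 CPM in d22 (lowest, median, highest), against 30.5, 34.9 and 39.7 CPM in pbs. Every d22 library was above every pbs library. Groups that did not overlap, in either direction, were found at 1 of the 45 members (2.22%) and at 1.33% of all regions. The log2 fold change was 0.35 ± 0.12 SE, and it did not pass the correction over all regions (edgeR adjusted p = 0.255). Without d22 4 it was 0.33 (adjusted p = 0.305). In tags per kb of called peak, with library totals as the scale, the groups overlapped at 4.86, 5.39 and 7.16 in d22 and 4.46, 5.53 and 7.02 in pbs (log2 difference 0.02, limma adjusted p = 0.925). Its partner Psmg3 had a log2 fold change of -0.04 in CPM. The Psmg4 promoter (plus strand) is shown with a GC box and a core of the interferon-stimulated response element in capitals, the response element just past the start.
Psmg4 (chr13:34162714-34163013): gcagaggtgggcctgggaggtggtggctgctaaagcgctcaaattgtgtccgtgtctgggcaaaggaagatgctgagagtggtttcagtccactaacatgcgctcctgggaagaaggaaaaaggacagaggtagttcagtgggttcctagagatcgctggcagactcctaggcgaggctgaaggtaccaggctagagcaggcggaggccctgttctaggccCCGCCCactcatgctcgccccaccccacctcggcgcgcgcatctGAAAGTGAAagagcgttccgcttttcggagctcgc
The other tested chaperones were within 0.14 of 0 in log2 fold change: Psmg2 at 0.14, Psmd9 at 0.11, Psmg1 at 0.03 and Psmd5 at 0.01.

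In the alpha ring, 2 of the 6 tested genes were above 0 and 4 below, with a median log2 fold change of -0.03. Psma5 had the lowest value of all members (chr3:108255929-108259453), with 78.7, 88.7 and 93.4 CPM in d22 and 71.9, 102 and 117 CPM in pbs. Each d22 library was below the pbs median, but the groups overlapped (log2 fold change -0.18 ± 0.11 SE, edgeR adjusted p = 0.600). Psma3, at its gene's end, had 38.9, 55.8 and 64.2 CPM in d22 and 37.5, 47.0 and 59.4 CPM in pbs. Its log2 fold change of 0.18 ± 0.15 SE (edgeR adjusted p = 0.716) stood beside 0.00 at its listed start. Psma1, Psma2, Psma4 and Psma7 were at 0.00, -0.08, -0.06 and -0.01.

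In the beta ring the median was 0.02 over 7 genes, 4 above 0 and 3 below. Psmb1 had 74.9, 82.8 and 93.8 CPM in d22 and 81.1, 96.6 and 108 CPM in pbs, in a region shared with Tbp (chr17:15496370-15499053). Each d22 library was below the pbs median, and the ranges overlapped (log2 fold change -0.16 ± 0.10 SE, edgeR adjusted p = 0.601). The structural subunits Psmb2, Psmb3 and Psmb4 were at 0.02, 0.03 and -0.03.

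The 3 catalytic subunits of the constitutive core were set beside those that replace them in the immunoproteasome. Psmb8 takes the place of Psmb5 (chymotrypsin-like), Psmb9 that of Psmb6 (caspase-like) and Psmb10 that of Psmb7 (trypsin-like). Psmb8 (chr17:34197187-34199379, shared with Tap1) had 35.0, 45.4 and 61.7 CPM in d22 and 26.0, 40.3 and 51.3 CPM in pbs, a log2 fold change of 0.17 ± 0.17 SE (edgeR adjusted p = 0.783). Psmb5 (chr14:54615702-54618521) had 49.8, 54.9 and 77.8 CPM in d22 and 51.2, 55.0 and 68.3 CPM in pbs, a log2 fold change of 0.04 ± 0.13 SE (adjusted p = 0.939). Both pairs of groups overlapped widely.

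Psmb9 (chr17:34186160-34189582, shared with Tap1) had 76.8, 90.6 and 107 CPM in d22 and 74.9, 82.4 and 114 CPM in pbs, with a log2 fold change of 0.01 ± 0.12 SE (edgeR adjusted p = 0.990). Psmb6 (chr11:70524078-70526737) had 79.7, 88.9 and 98.4 CPM in d22 and 59.4, 86.9 and 109 CPM in pbs, with 0.06 ± 0.12 SE (adjusted p = 0.909). Neither differed beyond the spread of the libraries. Psmb10 lay in a domain of 8241 bp (chr8:105936142-105944382) that also takes in ends of Lcat and Slc12a4, wider than 96.3% of gene-end regions. It had 265, 294 and 322 CPM in d22 and 283, 306 and 323 CPM in pbs, with -0.06 ± 0.07 SE (adjusted p = 0.826). Its largest peak had its median summit at -4805 bp from the Psmb10 start, upstream of the gene. Psmb7 (chr2:38642543-38644682) had 54.1, 72.7 and 76.1 CPM in d22 and 62.0, 75.2 and 85.1 CPM in pbs, with -0.09 ± 0.11 SE (adjusted p = 0.822).

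Per kb of called peak, Psmb8 was at 0.591, 0.829 and 1.12 times Psmb5 in d22 (lowest, median, highest library) and at 0.550, 0.676 and 0.865 times in pbs. It was the lower of the pair in 4 of 6 d22 libraries and 6 of 6 pbs libraries. Psmb9 was at 0.662, 0.972 and 1.07 times Psmb6 in d22 and 0.679, 0.916 and 1.29 times in pbs. Psmb10 was at 1.02, 1.21 and 1.31 times Psmb7 in d22 and 0.890, 1.06 and 1.38 times in pbs, within the domain just described. The group ranges of all 3 ratios overlapped. A region was called at all 3 inducible genes in every library of both groups. The promoters of the first pair are shown, Psmb8 on the plus and Psmb5 on the minus strand, because they differ in the motifs searched: none matched in Psmb8, and Psmb5 holds an antioxidant response element core before its start.
Psmb8 (chr17:34197945-34198244): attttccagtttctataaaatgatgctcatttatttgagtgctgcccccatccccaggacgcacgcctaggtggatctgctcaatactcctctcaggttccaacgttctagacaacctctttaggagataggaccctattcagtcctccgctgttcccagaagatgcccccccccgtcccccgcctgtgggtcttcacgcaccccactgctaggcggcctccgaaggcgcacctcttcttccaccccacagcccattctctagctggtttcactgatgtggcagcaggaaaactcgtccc
Psmb5 (chr14:54617946-54618245): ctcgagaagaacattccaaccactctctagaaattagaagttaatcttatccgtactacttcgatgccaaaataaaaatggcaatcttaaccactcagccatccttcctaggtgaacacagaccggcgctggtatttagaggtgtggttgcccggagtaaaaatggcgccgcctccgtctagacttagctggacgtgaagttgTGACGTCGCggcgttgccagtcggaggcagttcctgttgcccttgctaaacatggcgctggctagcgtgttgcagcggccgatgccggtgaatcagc

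**Figure D4:**
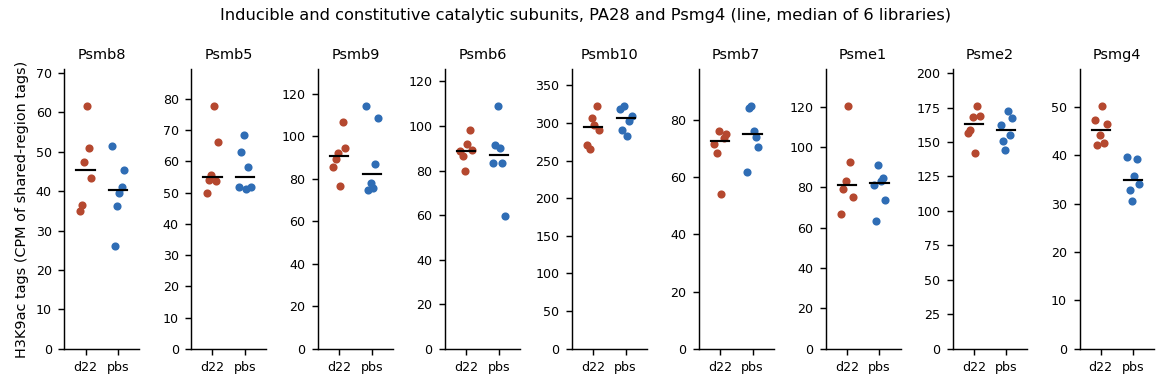
H3K9ac tags in CPM (y axis, from 0) at the inducible subunits Psmb8, Psmb9 and Psmb10, each beside its constitutive counterpart, at Psme1 and Psme2, and at Psmg4. Points are the 6 libraries of d22 (left) and of pbs (right) and lines the group medians; the groups overlap in all panels but Psmg4.

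Leukocytes carry the immunoproteasome genes too, so their marker genes were read beside them. Of 9 leukocyte markers 5 had a region in any library and 2 in all 12, and Ptprc, Cd3e, Cd74 and Ms4a1 had none. The 2 shared regions, at Cd79a with Arhgef1 and Lcp1 with Lrrc63, summed to 171 to 327 CPM in d22 and 163 to 215 CPM in pbs. Of 6 macrophage markers 1 had a region in all 12 libraries (Cd68, shared with Mpdu1, 58.9 to 91.1 CPM in d22 and 63.3 to 79.3 in pbs). None of 5 neutrophil markers and none of 5 stellate cell markers had one, and 1 of 5 endothelial (Pecam1) and 1 of 4 cholangiocyte markers (Sox9) did. By contrast all 10 hepatocyte markers had one, with sums of 2094 to 2522 CPM in d22 and 2343 to 2873 CPM in pbs. None of these marker regions passed the test (lowest adjusted p, Alb, 0.177, edgeR). Of the 10 hepatocyte markers 4 had an unadjusted p under 0.05, where 10.9% of all regions did, and all 4 were lower in d22: Alb (log2 fold change -0.56), Serpina1a (-0.28), Apoa2 (-0.24) and Apob (-0.23). Over the 10 markers 4 were above 0 (Hnf4a at 0.08, Apoa1, Ttr and Tat at 0.03) and 6 below, with a median of -0.16. The region of Apoa2 is shared with Nr1i3 and Tomm40l, that of Apoa1 with Sik3 and Apoc3, and that of Fgb with Plrg1. What part other cells have in the values at Psmb8 to Psmb10 was not tested.

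Genes that work with the immunoproteasome in antigen presentation did not pass the test either. Of 13 such genes (interferon signalling and MHC class I, a list fixed with earlier results of these data known) all had a region in all 12 libraries, 6 were above 0 and 7 below. The median log2 fold change was -0.05. Nlrc5, the activator of MHC class I genes, had the smallest p, with a log2 fold change of -0.24 ± 0.11 SE (edgeR adjusted p = 0.434). Irf1 was at -0.06, B2m at -0.18, Tap2 at 0.18 and H2-K1 at -0.05.

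All 6 ATPases of the base lay below 0, between -0.08 and -0.03, with a median of -0.06. None passed the test, and each estimate was smaller than its standard error. Psmc2, Psmc4, Psmc5 and Psmc6 changed sign on leaving out some library. Psmc3 had the smallest p of the class (chr2:91053237-91055697), with 79.7, 90.8 and 96.3 CPM in d22 and 85.9, 91.7 and 104 CPM in pbs (log2 fold change -0.07 ± 0.08 SE, edgeR adjusted p = 0.828). Psmc4, the member highest per kb, had 72.9, 86.7 and 102 CPM in d22 and 64.7, 92.2 and 108 CPM in pbs (-0.03 ± 0.12 SE, adjusted p = 0.958). Psmc1, Psmc2, Psmc5 and Psmc6 were at -0.08, -0.06, -0.04 and -0.08. Among the other base subunits Psmd1, a scaffold, had 98.7, 125 and 132 CPM in d22 and 108, 129 and 150.3 CPM in pbs (-0.09 ± 0.09 SE, adjusted p = 0.785). Psmd2, the other scaffold, was at -0.04 and Psmd4, a ubiquitin receptor, at 0.02.

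The lid had a median of -0.02, with 3 of 8 genes above 0 and 5 below. Psmd13, which shares its region with Sirt3 (chr7:140878739-140883942), had 134, 169.7 and 199 CPM in d22 and 174, 189.8 and 210.4 CPM in pbs. The group ranges overlapped (log2 fold change -0.15 ± 0.09 SE, edgeR adjusted p = 0.616). Psmd14, the deubiquitinase of the lid, was at -0.07, and Psmd3, Psmd6, Psmd7, Psmd8, Psmd11 and Psmd12 ran from -0.10 (Psmd12) to 0.07 (Psmd3).

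The 4 tested activators were all above 0 on the TMM scale, with a median of 0.10, while library totals put that median at -0.13, against -0.22 for all regions. None passed the test. Psme1 and Psme2 form the interferon-inducible activator PA28. Psme1 had 66.6, 81.2 and 120.5 CPM in d22 and 63.4, 82.1 and 90.9 CPM in pbs (log2 fold change 0.10 ± 0.13 SE, edgeR adjusted p = 0.836). Psme2, in a region shared with Rnf31, had 142, 163 and 176 CPM in d22 and 144, 159 and 173 CPM in pbs (0.03 ± 0.08 SE, adjusted p = 0.936). Psme4, the nuclear activator PA200, had 90.7, 102 and 126 CPM in d22 and 87.6, 93.3 and 97.1 CPM in pbs (0.15 ± 0.09 SE, adjusted p = 0.585). In 5 of 6 d22 libraries it was above the pbs median. Psme3, the nuclear PA28 gamma, was at 0.09.

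Of the genes that only share the name, Psmc3ip had 50.6, 57.0 and 71.1 CPM in d22 and 43.9, 52.0 and 56.9 CPM in pbs (log2 fold change 0.16 ± 0.11 SE, edgeR adjusted p = 0.656). Its called length ran the same way and its density the other. The region was called over 1737 to 1973 bp in d22 and 921 to 1739 bp in pbs (log2 difference 0.35, limma adjusted p = 0.700). Tags per kb were 4.84, 5.24 and 6.95 in d22 and 5.65, 7.09 and 12.1 in pbs (log2 difference -0.36, limma adjusted p = 0.273). The value of 12.1 was that of pbs 3, with the shortest call. Psme3ip1 was at -0.03 in CPM.

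Tags per kb of called peak were lower in d22 at most regions of the genome, and the members moved with them. The median log2 difference was -0.12 over all regions, with library totals as the scale, and -0.14 over the members, or -0.01 relative to all regions. Of the members 42 of 45 were below 0, against 86.7% of all regions. None passed the test, where 0.154% of all regions did (19, and 1 to 60 on leaving out a library, with 60 without d22 2 and 1 without d22 6 or pbs 3). At an unadjusted p under 0.05 there were 6 members, against 13.8% of all regions. Called length did not pass the test at any member or elsewhere (0%), and 1 member, Psmc3ip, had an unadjusted p under 0.05, against 6.81% of all regions (limma).

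The authors' fold enrichment over the local background, taken as the highest in a region, was lower in d22 at 18.9% of all regions and higher at 1.34% by the same threshold (limma), with a median log2 difference of -0.30. Of the 45 members 8 were called lower and 1 higher, with a median of -0.28, or 0.02 relative to all regions. Psmg1, a core chaperone whose region reaches Brwd1, was the furthest, at 17.7, 20.9 and 32.1-fold in d22 and 39.0, 49.99 and 57.3-fold in pbs (log2 difference -1.08, limma adjusted p = 4.19e-05). Its tag count had a log2 fold change of 0.03. Since each group has its own input, input and group cannot be told apart in this measure.

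The lid subunit Psmd8 had enrichments of 36.0, 39.3 and 51.3-fold in d22 and 49.5, 71.1 and 87.5-fold in pbs (log2 difference -0.71, limma adjusted p = 0.00346). Psmb2 had 32.5, 47.3 and 59.0-fold in d22 and 59.4, 70.9 and 84.1-fold in pbs (-0.62, adjusted p = 0.00864, limma). Every d22 library was below every pbs library at Psmb2, as at Psmg1, whereas the ranges overlapped at Psmd8. The PA28 genes Psme1 and Psme2 had log2 fold changes above 0 in tag counts (0.10 and 0.03). In fold enrichment Psme2 had 25.3, 34.5 and 45.2-fold in d22 and 46.4, 50.5 and 61.2-fold in pbs (-0.60, adjusted p = 0.0146, limma). Psme1 had 34.8, 36.9 and 46.4-fold in d22 and 36.2, 61.2 and 74.8-fold in pbs (-0.55, adjusted p = 0.0247, limma). Of the 2, Psme2 had groups that did not overlap. In all, 4 of the 45 members had groups that did not overlap in this measure, where 6.2% of all regions did (5.82% lower and 0.38% higher in d22). The fourth, Psma4, was higher in d22, at 36.6, 40.5 and 44.0-fold, against 22.1, 33.3 and 34.3-fold in pbs, and did not pass the test (log2 difference 0.37, limma adjusted p = 0.127).

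Psma2 had 31.7, 50.4 and 61.5-fold in d22 and 53.6, 71.9 and 83.1-fold in pbs (-0.50, adjusted p = 0.0333, limma). Psmd1 had 31.8, 45.0 and 65.4-fold in d22 and 43.5, 62.3 and 83.8-fold in pbs (-0.49, adjusted p = 0.0491, limma). Psmd4 had 47.5, 55.5 and 71.7-fold in d22 and 62.3, 79.3 and 106-fold in pbs (-0.46, adjusted p = 0.0438, limma). At all 3 the ranges overlapped. Psme3ip1 ran the other way, with 48.6, 57.4 and 79.3-fold in d22 and 28.2, 44.3 and 52.8-fold in pbs (0.51, adjusted p = 0.0351, limma), every d22 library above the pbs median. In tag counts these genes did not pass. Psmd8 had 68.3, 86.2 and 123 CPM in d22 and 68.5, 91.5 and 119.9 CPM in pbs (log2 fold change -0.04 ± 0.16 SE, edgeR adjusted p = 0.959). Psmb2 had 91.1, 97.3 and 105 CPM in d22 and 84.3, 98.1 and 107 CPM in pbs (0.02 ± 0.08 SE, adjusted p = 0.958, edgeR). Psme3ip1 had 149.7, 187 and 210.4 CPM in d22 and 151, 180.2 and 223 CPM in pbs (-0.03 ± 0.11 SE, adjusted p = 0.947, edgeR). The groups overlapped at all 3 in this measure.

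Beyond the main regions, 2 weak member regions could be compared by how many libraries called them. A region at the lower end of Psmg3 (chr5:139822288-139823250) was called in 1 of 6 d22 libraries and 5 of 6 pbs libraries (Fisher's exact test, two-sided, p = 0.0801, adjusted p = 1). A second region at Psmd9 was called in 3 of 6 libraries of each group. No region of the 16871 called in 2 to 10 libraries passed this test (0%). With 6 libraries in each group its p cannot be very small, and adjustment over that many regions leaves little room for any call. The lack of a call here is therefore no sign that the groups are alike.

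Genes that feed or regulate the proteasome, a list of 31 fixed with earlier results known, had no call either. Of the 31, 28 had a region in all 12 libraries. None passed the test, 6 were above 0 and 22 below, and the median log2 fold change was -0.04, against 0.00 over all regions. Nfe2l1, which encodes the factor that raises proteasome genes when proteasomes are inhibited, was at -0.06, and its processing protease Ddi2 at -0.14. Nfe2l2 was at -0.02. Ubb, a polyubiquitin gene, was at -0.11. The core maturation factor Pomp was at 0.06, the deubiquitinases Usp14 and Uchl5 at -0.16 and 0.10, the ubiquitin receptor Adrm1 at -0.05 and the unfoldase Vcp at -0.03. No region was called at the ends of Psmf1 or Ecpas, and Paaf1 was not analysed here. The 75 regions of cytosolic ribosomal protein genes, another set of housekeeping genes, had a median log2 fold change of -0.03 and a median size of change of 0.07, against 0.06 for the proteasome genes and 0.10 for gene-end regions. None of these regions passed the test, and the difference between the gene sets was not tested.

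Promoter letters were compared over the 41 member entries (39 genes) whose start lies in a region common to all 12 libraries and the 10002 such entries of all protein-coding genes. Entries of 300 bases were searched on both strands, and motifs may overlap and were counted singly. The ETS core CCGGAA was in 51.2% of member promoters (21 of 41) and in 32.0% of all. These 21 include both entries of Psmc2, and entries of Psmc3ip and Psme3ip1, which only carry the name. The GC box GGGCGG was in 58.5% and 67.4%, and the CCAAT box in 31.7% and 38.4%. The interferon-stimulated response element core GAAANNGAA was in 17.1% (7 of 41) and 6.61%, at Psmb3, Psmb4, Psmc2, Psmd4, Psmd9, Psme1 and Psmg4 and at no immunoproteasome gene. The antioxidant response element core TGACNNNGC, part of the site bound by Nfe2l1 and Nfe2l2, was in 14.6% and 14.4%, at Psmb5, Psmb6, Psmc6, Psmd9, Psmd12 and Psme4. The E box CACGTG was in 12.2% and 10.7%. Member promoters had a median of 59.3% G and C, against 62.0% of all. A match describes these letters and was not tested as a binding site. Psma8, Psmb1, Psmb2, Psmb7, Psmc3, Psmd3, Psmd7 and Psmg2 have no entry in the promoter table used.

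**Figure D5:**
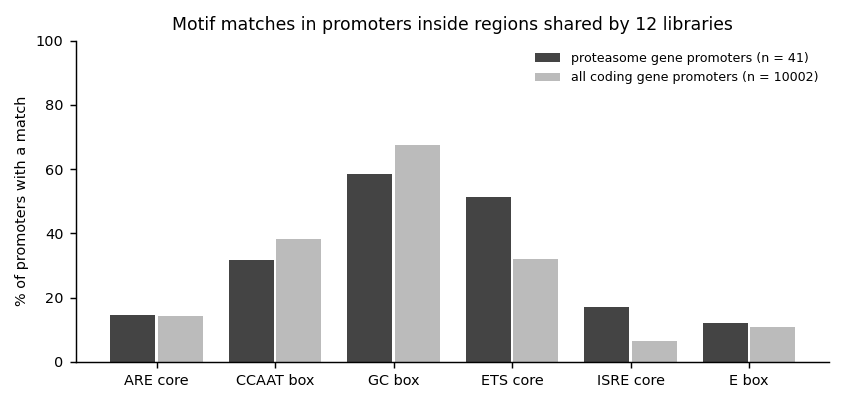
Share of promoters (y axis, %) with a match to each of 6 motifs (x axis; ARE is the antioxidant response element, ISRE the interferon-stimulated one), among promoters whose start lies in a region of all 12 libraries. Dark bars are the 41 promoter entries of member genes, Psmc3ip and Psme3ip1 included, and light bars the 10002 entries of all protein-coding genes. The ETS core is at 51.2% and 32.0%.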

How the data were processed

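The deposited peak tables of 12 H3K9ac libraries (6 titled d22, 6 titled pbs) were used. The 2 pooled input samples have no table and were not analysed here. Per the submitters' processing notes, CASAVA 1.8, Novoalign and MACS 1.4.2 were used, with mm10. Per the file headers, MACS ran on each library alone. Its cutoff on the p-value was 1e-05, its genome size 1.87e+09, its band width 300 bp, and it kept at most 1 tag per position.

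Per the file headers, the authors' tables give for each peak a false discovery rate (percent), a fold enrichment above local background, a score (log10 of p times -10) and a raw tag count. Counts, lengths and fold enrichments were used in tests, the score in an alternative, and the percent column was not tested. Peaks that overlapped by at least 1 bp in any libraries were joined into regions, and the counts of each library were summed in each. A region carries only tags under called peaks, so counts depend on calling and on depth (6343891 to 13259411 tags). No 2 libraries agreed within sampling noise (66 pairs, chi-square per degree of freedom at least 2.41).

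For each gene the test used its most tag-rich region out of those that all 12 libraries share. Genes, gene ends and promoters came from RefSeq tables (GRCm38.p6 for promoters). The main test was edgeR 4.0.16 (robust quasi-likelihood, TMM) in R 4.3.3 over all 12375 regions called in 12 libraries, by title, with Benjamini-Hochberg adjustment at 0.05. Tags per kb of called peak per 1000000 library tags (pseudocount 1), called length and log2 fold enrichment were tested with limma 3.58.1, and occupancy with Fisher's exact test (SciPy 1.17.1). Alternatives were DESeq2 1.42.0, library totals, a mean of at least 50 tags, a score of at least 100, joining within 500 bp, a 500 bp window, the replicate number as a block and leaving out each library. The fitting steps were tested on simulated data.

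Every member is named. Full values are given for the member with the smallest p of each class, the 3 highest and 3 lowest log2 fold changes, the catalytic pairs, Psme1, Psme2, the highest and lowest levels, members called in any test (Psmg1, Psma2 and Psmd4 with the fold enrichment alone), and for Psma6, added after its values were seen. The members, lists and tests were chosen with earlier results of these data known. Some genes of the lists are not reported here by name.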

Additional observations from a re-analysis of the deposited data

Results flagged for a closer look

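Within the 6 d22 libraries, d22 4 stood far from the other 5 at 4 proteasome genes. It had 59.8 CPM at Psma2 (the others 84.4 to 97.3), 54.1 CPM at Psmb7 (68.6 to 76.1), 40.8 CPM at Psmc2 (67.5 to 77.9) and 146 CPM at Psmd7 (106 to 114). It also had 44585 peaks, against 26352 to 30698 in the other d22 libraries, and the lowest depth. Of 90 groups of member values examined 4 were singled out in this way, all 4 through d22 4. Chance alone singles out about 1 group in 20, but these groups come from the same libraries and are not independent. Without d22 4 the log2 fold changes (d22 over pbs) of these genes were 0.00 for Psma2, -0.03 for Psmb7, 0.04 for Psmc2 and 0.00 for Psmd7, and no member passed the edgeR test. The part of peak number and depth in these values was not tested.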

How the results depend on the processing

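No proteasome region was called (edgeR or limma, 45 tested) under DESeq2, library totals, the 50-tag minimum, the stricter score, the wider joining, tags per kb, the 500 bp window, all member regions, Psma3 and Psma6 at their listed starts (chosen after seeing the data), or without any 1 library. With fold enrichment 9 were. Signs turned with fold enrichment for called Psmb2 (-0.62), Psmd4 (-0.46), Psmg1 (-1.08), Psme1 (-0.55), Psme2 (-0.60) and Psme3ip1 (0.51). Over all regions, DESeq2 called 272, library totals 454, tags per kb 19 and fold enrichment 2503, against 125. Library totals put the class medians of log2 fold change at -0.26 (alpha), -0.20 (beta), -0.23 (immunoproteasome), -0.29 (ATPases), -0.27 (other base), -0.26 (lid), -0.15 (chaperones), -0.13 (activators), -0.16 (not a subunit), -0.24 (20S) and -0.28 (19S), where all regions moved by -0.22. In tags per kb they were -0.15 (alpha), -0.15 (beta), -0.12 (immunoproteasome), -0.21 (ATPases), -0.16 (other base), -0.10 (lid), -0.086 (chaperones), -0.051 (activators), -0.28 (not a subunit), -0.15 (20S) and -0.16 (19S), where all regions moved by -0.12. In fold enrichment they were -0.21 (alpha), -0.33 (beta), -0.23 (immunoproteasome), -0.30 (ATPases), -0.46 (other base), -0.24 (lid), -0.17 (chaperones), -0.39 (activators), 0.07 (not a subunit), -0.31 (20S) and -0.30 (19S), where all regions moved by -0.30. The cause of these moves was not tested. Leaving out each library gave 64 to 139 called regions in counts, 1 to 60 in tags per kb and 0 to 35 in called length (35 without d22 1). Members' log2 fold changes kept their sign in 24 of 45 genes and turned in 21 on leaving out some library, with a lowest adjusted p of 0.250 (edgeR). With the replicate number as a block, 128 regions were called and no member (lowest adjusted p = 0.337), and 11 regions were called in tags per kb. Same-numbered libraries deviated with a correlation of -0.006 to 0.16 over 6 pairs, not all above 0.1, so the numbers were not taken as pairs. Of the 6 d22 libraries, 1 correlated best with the pbs library of its own number. Depth limits single regions: members had 41 to 899 tags per library.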
